A study of Mus musculus with 30 samples.

Results

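Mouse embryonic stem cells (mESCs) kept in EMM for 10 passages (P10) were compared with the same cells kept in 2i/LIF for 10 passages, across every gene of the deposited RNA-seq table. The comparison takes 6 of the 30 samples described for the series, 3 libraries per medium, chosen by their labels for medium and passage and by no measured value. The other samples used here are the P10 Serum/LIF libraries and the P20 libraries in EMM and in 2i/LIF, 3 of each, which serve as reference points, and the 3 P20 Serum/LIF libraries enter only the filter, the scaling and the shared estimate of spread. The cells were E14tg2a, a long-established mESC line, so the groups share 1 genetic background, and every medium held LIF, the cytokine that supports self-renewal of mESCs. EMM (Enhanced Metabolic Media) is the serum-containing Serum/LIF medium in which D-galactose takes the place of D-glucose and of pyruvate. 2i/LIF is serum-free N2B27 medium with CHIR99021, an inhibitor of the kinase GSK3, and PD03, an inhibitor of the kinase MEK, a composition that the methods give for cultures of another assay. The media therefore differ at once in base medium, serum, sugar and inhibitors. What each of these contributes to a difference between EMM and 2i/LIF cannot be told apart. The methods describe the 3 replicates of an RNA-seq group as independent experiments, and no feeder layer or sorting step is mentioned.

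MEK passes signals from FGF receptors to ERK, and ERK switches on a well-known set of genes, among them its own feedback inhibitors of the DUSP and SPRY families. GSK3 marks β-catenin for destruction, so its inhibition lets β-catenin accumulate and act with TCF/LEF factors on Wnt target genes such as Axin2 and Sp5. Cells in 2i/LIF are known for a naive state with low DNA methylation, whereas serum exposes mESCs to growth factors that favour heterogeneity. Galactose enters glycolysis through the enzymes of the Leloir pathway, more slowly than glucose does, and cells grown on it are known to lean on mitochondrial respiration.

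The authors deposited estimated counts per gene, and the normalized counts given here are those counts scaled to a common library size. Totals ran from 7329846 to 20111946 counts in EMM and from 10030882 to 19619034 in 2i/LIF, so EMM replicate 3 was the shallowest of the 6 libraries and EMM replicate 1 the deepest. Each library had a mean correlation of 0.9705 to 0.9756 with the others of its group. Median coefficients of variation between replicates were 9.8% in EMM and 11.6% in 2i/LIF over 11875 genes. The share of counts from mitochondrially encoded genes ran from 0.85% to 1.88% in EMM, and was 1.47% in 2i/LIF replicate 1 against 3.35% and 3.39% in replicates 2 and 3. The core markers of mESCs were high in every library, their summed normalized counts being 92321 to 101171 in EMM and 38818 to 45621 in 2i/LIF, with none of 11 members under a mean of 10 in either medium. Markers of other cell types summed to less. The 17 primitive endoderm genes came nearest, at 19344.0 to 21384 in EMM and 14389 to 17553 in 2i/LIF, and most of this came from genes of the basement membrane such as Lamc1 and Sparc, while the endoderm factor Gata4 had 31.5 ± 12.4 and 16.2 ± 5.10 (SD, n = 3 each). The 5 neural genes summed to 1515 to 1688 and 674 to 1037.5. Summed counts of 6 fibroblast markers were 326 to 386 in EMM and 87.1 to 112 in 2i/LIF, with Lum and Dcn below the filter, and those of 3 mesoderm markers were 98.5 to 118.5 and 10.6 to 13.1. The trophectoderm list summed to 1246.9 to 1509.6 and 1411.6 to 1574.3 over 11 genes, with Elf5 below the filter. These are bulk samples, in which fewer cells of a type and less RNA per cell cannot be told apart.

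The media separated a large part of the transcriptome at P10, in both directions alike. Of 55487 genes in the table, 16054 passed the filter on low counts and were tested. Calls required a log2 fold change, EMM over 2i/LIF, beyond 1 or −1 together with an adjusted p under 0.01. In all, 3544 genes (22.1%) met them, 1771 of them higher in EMM and 1773 lower, which is 11% of the tested genes each way. The calls included 1637 and 1593 of the 14195 protein-coding genes tested. With an adjusted p under 0.01 alone, 3673 genes (22.9%) were higher and 3564 (22.2%) lower, and the counts of gene list members given throughout use this rule and are to be read against these shares. Named genes said to lose or gain a call in a changed run were also judged by adjusted p alone, without the fold threshold. All 3 EMM libraries lay above all 3 2i/LIF libraries for 29.1% of the genes and below them for 29%. The median log2 fold change of all tested genes was 0.01, the median size was 0.53 and the median standard error (SE) was 0.16. Differences above 3 in size on the log2 scale were called for 501 higher and 498 lower genes.

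**Figure D1:**
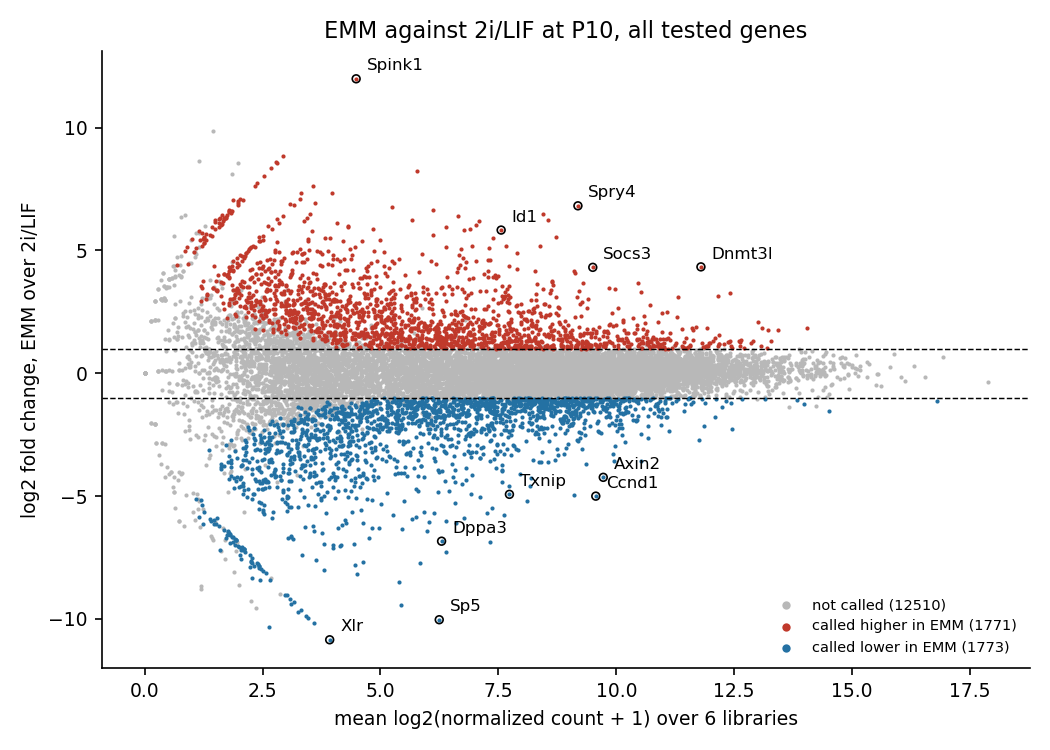
Log2 fold change between EMM and 2i/LIF at P10 against the mean log2 normalized count over the 6 libraries (plus 1), 1 point per tested gene. Coloured points are the 1771 genes called higher and the 1773 called lower in EMM, dashed lines mark log2 fold changes of 1 and −1, and the labelled genes reach past 4 in size on both sides. For genes with no count in a medium the plotted value is fitted and is no bound.

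By fitted log2 fold change, the top rises and falls were genes silent or nearly so in the opposite medium. Fitted values of such genes depend on the fit, so the rank is not one of measured size, and genes counted in both media, such as Spry4, T and Dppa3, can differ by more than the bounds given here for some of them. The 10 top rises by fitted value among called genes with a mean of at least 50 normalized counts in a group and no overlap of libraries were Spink1, Gdf1, Spink10, Dgkeos, Eln, C1qtnf9, Sftpd, Cplx1, Hand1 and Dgkk. Spink1, a secreted inhibitor of trypsin, had 375, 516 and 648 normalized counts in the EMM libraries and 0 in each 2i/LIF library. With the 2i/LIF libraries set to a floor of 3 counts each, its level was at least 134-fold higher in EMM. Its relative Spink10 had 904, 856 and 843 in EMM and 1.57, 2.90 and 3.26 in 2i/LIF, so the groups were far apart. Spink10 was also low in Serum/LIF at P10 (4.82, 11.9 and 18.5). Gdf1, a ligand of the TGF-β superfamily whose exons overlap those of Cers1 on the same strand, was at least 15.2-fold higher. Of the remaining 7, each had 1 or 2 counts in all of 2i/LIF. Eln, which encodes elastin, had 146, 112 and 192 in EMM against 1.57, 0 and 0.815, a ratio of 189 with a 95% counting interval of 52.4 to 1562. Hand1, a bHLH factor of extra-embryonic and heart mesoderm, had 71.5, 65.5 and 41.2 against 0, 0 and 0.815, a ratio of 219 with an interval of 39.3 to 8642. The ratios of Dgkeos, C1qtnf9, Sftpd, Cplx1 and Dgkk were 195, 305, 134, 199.9 and 124, with lower interval ends of 35.0, 54.8, 24.1, 55.4 and 22.2. These intervals and all floors cover counting error only, and Dgkeos lies antisense to Dgke, from which it can be separated only if the counting used strand. Each of these 5 genes had counts in only 1 2i/LIF library. Without that library the fitted log2 fold changes rose to 9.70 for Dgkeos, 9.37 for C1qtnf9, 9.19 for Sftpd, 9.75 for Cplx1 and 8.95 for Dgkk. In the main fit they were 7.61, 7.36, 7.09, 6.93 and 6.87. Without replicate 3 Dgkeos, Sftpd and Dgkk stood at 6.85, 6.335 and 6.11.

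The 10 top falls by fitted value were Xlr, Akap6, Sp5, Sptlc3, Cnga4, Khdc1a, Xlr4b, Nkx1-2, Khdc1c and Rhox2a, and 8 of them had no count at all in EMM. Xlr, of an X-linked gene family with germ cell members, had 0 counts in every EMM library and 243, 267 and 186 in 2i/LIF, at least 49.9-fold lower. Akap6, an anchor protein for protein kinase A, went from 137, 147 and 148 in 2i/LIF to 0 in EMM (at least 30.9-fold), and Sptlc3, a subunit of serine palmitoyltransferase, from 83.2, 155 and 136 to 0 (at least 26.8-fold). Cnga4, Khdc1a, Xlr4b and Khdc1c were at least 25.2-fold, 22.0-fold, 21.6-fold and 17.8-fold lower. Of these, Khdc1a had 53.4, 79.9 and 174 and Khdc1c 40.8, 68.3 and 139 in 2i/LIF, with replicate 3 far above the others. Without that library the bounds were 14.3-fold and 11.7-fold. Xlr and Xlr4b, Khdc1a and Khdc1c, and also Rhox2a belong to families of close copies among which the counting may divide reads. Rhox2a, a reproductive homeobox gene of a cluster on the X chromosome, had 83.2, 65.4 and 90.4 in 2i/LIF and 0 in EMM, at least 17.1-fold lower, and it was also near 0 in Serum/LIF (0.964, 0.992 and 0). Most of the other top falls were low in Serum/LIF at P10 too. Means there were 0 for Sptlc3 and Khdc1a, 0.331 for Khdc1c, 1.36 for Cnga4, 2.85 for Akap6, 4.24 for Xlr and 7.57 for Xlr4b. Those of Nkx1-2 and Sp5 were 20.6 and 316. Nkx1-2, a homeobox gene of the caudal epiblast, had 0.804, 3.12 and 0 in EMM and 1132, 887 and 898 in 2i/LIF, a ratio of 744 with an interval of 255 to 3608.

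Genes switched on by ERK were mostly higher in EMM. Of 22 tested genes on a list of ERK outputs, 16 were higher and 5 lower by adjusted p, with a median log2 fold change of 1.44. The feedback inhibitor Spry4, which dampens signalling from receptor tyrosine kinases, had 6581, 5893 and 5818 normalized counts in EMM and 76.9, 58.1 and 36.7 in 2i/LIF, a log2 fold change of 6.82 with an SE of 0.15 (adjusted p = 3.62e-16 by edgeR). Serum/LIF at P10 lay between, at 1114 ± 53.4 (SD, n = 3). Dusp6, the phosphatase that removes the activating phosphates from ERK, had 3145, 2975 and 3058 in EMM and 273, 280.3 and 274 in 2i/LIF, a log2 fold change of 3.47 with an SE of 0.11 (adjusted p = 5.08e-14 by edgeR). No 2i/LIF library came near the EMM range for either gene. Spry2 and Dusp4, of the same families, had log2 fold changes of 1.59 and 4.35. Among transcription factors, Myc, a driver of growth and ribosome production, rose from 126 ± 32.0 to 1194 ± 110.2 (SD, n = 3 each), a log2 fold change of 3.26 with an SE of 0.14 (adjusted p = 2.59e-12 by edgeR). Etv4, an ETS factor downstream of FGF, rose by 2.81, and the AP-1 subunit Junb by 2.76, on the log2 scale. Phlda1, a pleckstrin-homology protein, rose by 3.03. Junb shares exonic sequence with Prdx2 on the opposite strand.

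The list also held genes that moved the other way. Ccnd1, which encodes the G1 cyclin D1, had 127, 129 and 147 in EMM and 3938, 4302 and 4528 in 2i/LIF, a log2 fold change of −5.00 with an SE of 0.11 (adjusted p = 3.62e-16 by edgeR), and the Serum/LIF level was 2307 ± 254 (SD, n = 3). Ccnd1 is also a known target of β-catenin. The immediate early genes Egr1 and Fos were lower in EMM by log2 fold changes of −1.76 and −1.45. Egr1 had 1316, 1016 and 907 in EMM against 3720.0, 3969 and 3383 in 2i/LIF, which put all 3 2i/LIF libraries above all EMM libraries. Fos had 1121, 1024 and 971 against 3703, 3154 and 1702. The 2i/LIF libraries of Fos were widely spread but did not overlap those of EMM.

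**Figure D2:**
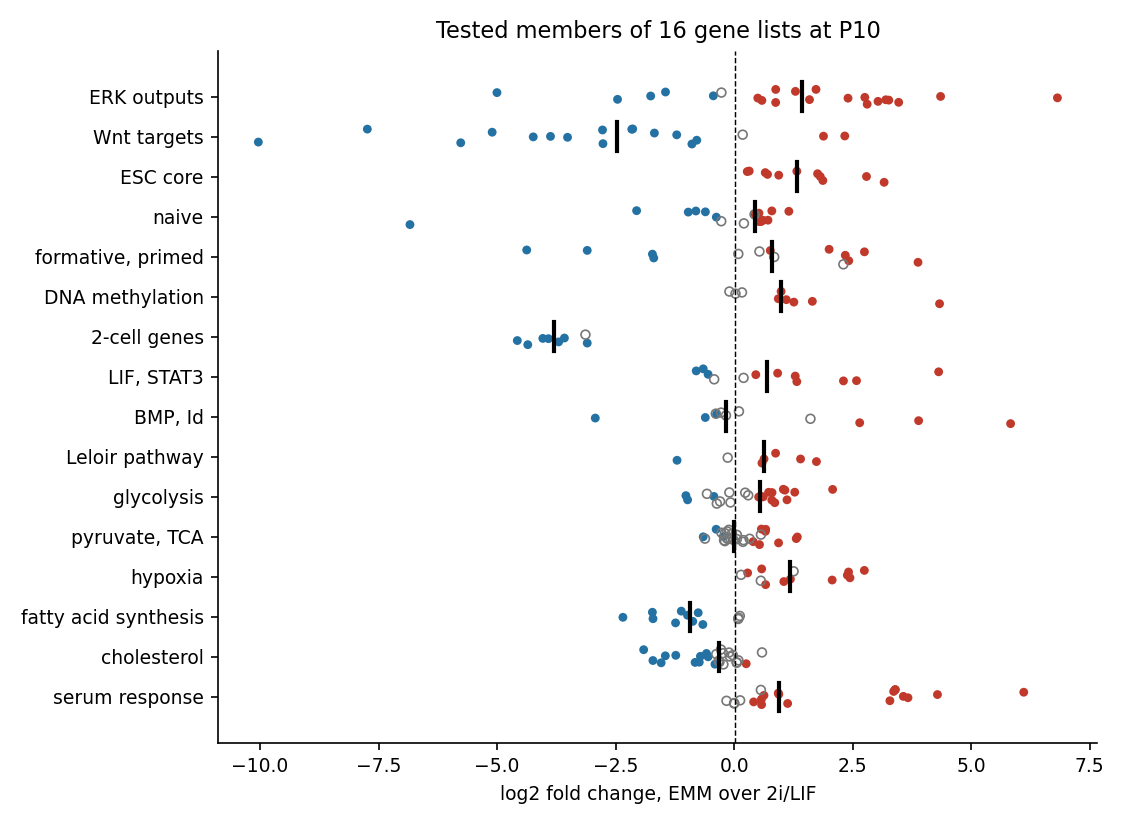
Log2 fold changes between EMM and 2i/LIF at P10 of the tested members of 16 gene lists, 1 point per gene, with the list's median as a black bar and the median of all tested genes as a dashed line. Filled points passed an adjusted p under 0.01, and open points did not. Wnt targets and 2-cell genes sit mostly below 0, and ERK outputs and hypoxia genes mostly above.

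Wnt target genes were mostly lower in EMM. Of 18 tested targets of β-catenin and TCF/LEF, 15 were lower in EMM and 2 higher by adjusted p, with a median log2 fold change of −2.46. Sp5, a zinc finger repressor that is a direct target of β-catenin, had 2.41, 3.12 and 0 normalized counts in EMM and 2354, 2467 and 2345 in 2i/LIF. Its ratio, 2i/LIF over EMM, was 1296 with a 95% counting interval of 556 to 3993, and the Serum/LIF level was 316 ± 163 (SD, n = 3). The sequence before the start of Sp5 is shown because it holds the TCF/LEF letters CTTTGAT, in capitals, ending 97 bases before the RefSeq start. The 250 bases lie at chr2:70474673-70474922 on the plus strand of GRCm38.p6.
Sp5: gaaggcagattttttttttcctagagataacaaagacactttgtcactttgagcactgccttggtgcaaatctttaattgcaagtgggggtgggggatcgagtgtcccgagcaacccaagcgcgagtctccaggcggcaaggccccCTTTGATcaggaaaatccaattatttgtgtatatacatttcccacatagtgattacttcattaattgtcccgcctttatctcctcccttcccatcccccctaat
CTTTGAT on either strand was present in this window for 1005 of 27025 RefSeq genes (3.72%), and for 2 of the 13 Wnt list genes with a promoter in the table, Sp5 and Tnfrsf19. A match of letters is a description of the window and not evidence of binding.

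Axin2, the scaffold of the β-catenin destruction complex and a negative feedback gene of the pathway, had 215, 210.4 and 156 in EMM and 3257, 4151 and 3782 in 2i/LIF, a log2 fold change of −4.24 with an SE of 0.20 (adjusted p = 5.67e-12 by edgeR). It lies at 108920349 to 108950783 on chromosome 11 (GRCm38), and it shares exonic sequence with Gm11670 on the opposite strand. T (Brachyury), the T-box factor of the primitive streak, fell from 768, 880.1 and 654 in 2i/LIF to 2.41, 6.23 and 2.29 in EMM, against 502 ± 257 (SD, n = 3) in Serum/LIF. No EMM library of T came near either of the other media. The caudal homeobox genes Cdx1 and Cdx2 had log2 fold changes of −3.87 (SE 0.27) and −5.77 (SE 0.32), and Cdx2 stood at 4.82, 4.68 and 4.58 in EMM against 224, 269 and 298. Rnf43, a ubiquitin ligase that removes Wnt receptors, fell by 5.10, and Tnfrsf19, a TNF receptor family member, fell by 3.51 on the log2 scale. Lef1 and Tcf7, the TCF/LEF factors on the list, were also lower, at −2.14 and −2.16. The members higher in EMM were Nkd2, a Dishevelled antagonist (log2 fold change 2.33, SE 0.51, edgeR adjusted p = 7.64e-04, or 2.98 without 2i/LIF replicate 3), and Ascl2, a bHLH factor (log2 fold change 1.88, SE 0.26, edgeR adjusted p = 7.40e-06).

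Core pluripotency genes were higher in EMM without exception among those that passed, while naive and formative genes split. All 11 tested members of the core list had positive log2 fold changes, 11 with an adjusted p under 0.01, and the median was 1.32. Gdf3 was the nearest to the threshold (log2 fold change 0.28, SE 0.08, edgeR adjusted p = 0.00958), which it missed when any 1 of the 6 libraries was left out, at log2 fold changes of 0.22 to 0.32. Tdgf1 (Cripto), the co-receptor of Nodal, had 14136, 13942 and 12915 in EMM and 1667, 1489 and 1425 in 2i/LIF, a log2 fold change of 3.16 with an SE of 0.08 (adjusted p = 3.56e-15 by edgeR). Utf1, a chromatin-bound ESC factor, had 4362, 4259.7 and 4909 against 838, 784 and 362 (log2 fold change 2.79, SE 0.21, edgeR adjusted p = 2.29e-09). Utf1 varied more than 2-fold within 2i/LIF, with replicate 3 lowest, and still did not overlap EMM. The RNA-binding protein Lin28a, Dppa4 and L1td1 had log2 fold changes of 1.87, 1.82 and 1.76. Of the 17 naive genes tested, 8 were higher and 6 lower. Dppa3 (Stella), a maternal factor that guards against DNA methylation, had 5.63, 7.79 and 9.16 in EMM and 559, 553 and 1281 in 2i/LIF, a log2 fold change of −6.84 with an SE of 0.60 (adjusted p = 2.40e-08 by edgeR). The Serum/LIF level of Dppa3 was 694 ± 93.1 (SD, n = 3), so EMM stood apart from both other media. Prdm14, which represses the de novo methylation machinery, had 126, 169.9 and 139.7 against 518, 594 and 681 (log2 fold change −2.06, SE 0.14, edgeR adjusted p = 5.99e-10). Nr0b1 (Dax1), a nuclear receptor of mESCs, was the one called rise, at 1.15. Tfcp2l1, a naive factor downstream of LIF, was lower by 0.81 and Tbx3 and Zfp42 (Rex1) were higher by 0.79 and 0.61, all under the fold threshold of 1.

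Formative and primed genes, which mark the step after the naive state, gave 6 higher and 4 lower of 14 tested. Pou3f1 (Oct6), a POU factor of the post-implantation epiblast, had 88.4, 84.2 and 91.6 in EMM and 3.14, 7.26 and 6.52 in 2i/LIF (log2 fold change 3.88, SE 0.22, edgeR adjusted p = 8.50e-11), far under the 839 ± 62.2 (SD, n = 3) of Serum/LIF. Otx2, which starts the exit from naive pluripotency, had 596, 502 and 421 against 137, 107 and 137 (log2 fold change 2.00, SE 0.24, edgeR adjusted p = 1.60e-06). Etv1 and Foxd3 had log2 fold changes of 2.42 and 2.34. Fgf5, the classical marker of the primed epiblast, was at 22.5, 31.2 and 52.7 in EMM and 4.71, 8.71 and 2.44 in 2i/LIF, low in both. The zinc finger factors Zic2 and Zic5, which mark the epiblast and neural plate, went the other way. Zic2 had 107, 62.3 and 66.4 in EMM against 631, 841 and 665 in 2i/LIF (log2 fold change −3.10, SE 0.23, edgeR adjusted p = 2.10e-09), and Zic5 and Sall2 had log2 fold changes of −1.70 and −1.72. In all 3 genes the 2i/LIF libraries lay above the EMM libraries. Gsc, an organizer homeobox gene, fell from 18.8, 13.1 and 27.7 in 2i/LIF to 0.804, 0 and 2.29 in EMM, on 2 counts in EMM.

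Of 9 tested genes that write, keep or remove DNA methylation, 6 were higher in EMM and 0 lower. The higher genes were the de novo writers Dnmt3a and Dnmt3b with their cofactor Dnmt3l, and the 3 TET enzymes, which act in removal. Dnmt1, the maintenance methyltransferase, did not pass (log2 fold change 0.17, SE 0.06, edgeR adjusted p = 0.0337), although DESeq2 called it at the same p threshold. Dnmt3l, the cofactor of the de novo methyltransferases, had 14299, 16874 and 19813 in EMM and 1455, 713 and 402 in 2i/LIF, a log2 fold change of 4.33 with an SE of 0.30 (adjusted p = 1.26e-09 by edgeR). The 2i/LIF libraries of Dnmt3l differed among themselves by more than 3-fold, and the lowest EMM library was still above the highest of them. Without 2i/LIF replicate 1 the log2 fold change of Dnmt3l was 4.95. Dnmt3l shares exonic sequence with Aire on the opposite strand. Dnmt3a and Dnmt3b, the de novo enzymes, had log2 fold changes of 1.65 (SE 0.15) and 0.99 (SE 0.13). The dioxygenases Tet1, Tet2 and Tet3, which oxidize 5-methylcytosine, were higher by 1.26, 0.93 and 1.10. Uhrf1, which brings DNMT1 to hemimethylated DNA, did not pass the test (log2 fold change −0.10, SE 0.08, edgeR adjusted p = 0.286).

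Imprinted and germline genes, both of which are often under the control of DNA methylation, moved in either direction. Of 25 imprinted genes tested, 11 were higher and 5 lower. Peg10, a retrotransposon-derived gene expressed from the paternal allele, had 18521, 18555 and 15034 in EMM and 1421, 1335 and 2587 in 2i/LIF (log2 fold change 3.28, SE 0.25, edgeR adjusted p = 3.86e-09), while Plagl1, a zinc finger factor, had 162, 129 and 172 against 1221, 1368 and 1846 (log2 fold change −3.27, SE 0.15, edgeR adjusted p = 5.18e-12). For both genes the libraries of the media were far apart. Usp29, of the Peg3 imprinted domain, had 9.64, 9.35 and 11.5 against 43.9, 102 and 189 (log2 fold change −3.50, SE 0.44, edgeR adjusted p = 2.16e-06), or −2.86 without 2i/LIF replicate 3. Igf2 and H19, of the same imprinted cluster, had 47.5 ± 6.02 and 25.6 ± 4.62 in EMM against 3.47 ± 3.64 and 2.58 ± 0.890 in 2i/LIF (SD, n = 3 each), and both were far higher in Serum/LIF, at 1724 ± 207 and 1033 ± 152. The log2 fold change of Igf2 was 4.06, or 5.32 without 2i/LIF replicate 2 and 3.15 without replicate 3. Of 21 germline genes, 6 were higher and 7 lower. Mael, a piRNA pathway gene, had a log2 fold change of 3.68, and the synaptonemal complex gene Sycp3 one of 2.10, whereas the germ cell RNA-binding gene Dazl (−2.47) and the ribosomal protein retrogene Rpl10l (−2.12) were lower. Rpl10l had 454, 466 and 522 against 2180.2, 1929 and 2108, tight in both media. Asz1, a piRNA pathway gene, had 0 counts in EMM and only 6.28, 2.90 and 4.07 in 2i/LIF, and its call was lost without EMM replicate 1 or 2 (edgeR adjusted p = 0.0234 and 0.01).

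Genes of the rare 2-cell-like state were lower in EMM. Of 8 tested genes of the list, 7 were lower and none higher, with a median log2 fold change of −3.81, or −2.99 without 2i/LIF replicate 3. Zscan4c, of a telomere-maintaining family, had 4.02, 7.79 and 9.16 in EMM and 61.2, 102 and 212 in 2i/LIF (log2 fold change −4.35, SE 0.82, edgeR adjusted p = 2.02e-04). Zscan4d had 4.82, 0 and 2.29 against 48.7, 50.8 and 112 (log2 fold change −4.57, SE 0.77, edgeR adjusted p = 6.08e-05). The 2i/LIF libraries of both genes were spread more than 2-fold, with replicate 3 highest, and lay above every EMM library. Without 2i/LIF replicate 3 the log2 fold change of Zscan4c was −3.70, and without EMM replicate 1 that of Zscan4d was −6.10. The Zscan4 genes are close copies, so the counts of single members are uncertain and 6 of the list are not independent of each other.

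Genes of the BMP pathway moved in both directions, at about the shares of all genes. Of 11 tested, 3 were higher and 3 lower, with a median of −0.17. Among ligands, Bmp4 had 2823, 2776 and 2435 in EMM and 413, 624 and 265 in 2i/LIF (log2 fold change 2.65, SE 0.21, edgeR adjusted p = 6.84e-09), whereas Bmp7 had 34.6, 40.5 and 55.0 against 290.4, 365 and 298 (log2 fold change −2.93, SE 0.20, edgeR adjusted p = 6.34e-10). Neither ligand's libraries overlapped between the media. Among targets, Id1, an inhibitor of bHLH factors that BMP induces through SMADs, had 1146, 1294 and 1743 in EMM and 31.4, 26.1 and 18.7 in 2i/LIF, a log2 fold change of 5.83 with an SE of 0.22 (adjusted p = 2.99e-13 by edgeR). Id2 had a log2 fold change of 3.89 (SE 0.24). Id3, of the same family, did not pass (log2 fold change −0.28, SE 0.13, edgeR adjusted p = 0.0711), with 375, 357 and 355 against 483, 471 and 371. Of 12 genes of LIF signalling through STAT3, 7 were higher and 3 lower. The receptor Lifr was higher by 0.92. Socs3, the feedback inhibitor of JAK signalling, had 3272, 3162 and 3278 in EMM and 226, 138 and 134 in 2i/LIF, a log2 fold change of 4.31 with an SE of 0.16 (adjusted p = 2.81e-13 by edgeR). The kinase gene Pim3 and the feedback genes Cish and Socs2 had log2 fold changes of 2.31, 2.58 and 1.29.

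Of 11 Nodal and activin genes, 2 were higher and 3 lower. The ligand Nodal did not pass (log2 fold change 0.05, SE 0.11, edgeR adjusted p = 0.695). The secreted antagonists Lefty1 and Lefty2, both targets of the pathway, were lower, with 498, 433 and 410.0 and 981, 962 and 841 in EMM against 1118, 925 and 1503 and 3158, 1982 and 2365 in 2i/LIF, log2 fold changes of −1.40 (SE 0.19) and −1.42 (SE 0.15). Inhbb, which encodes an activin subunit, was higher, with 59.5, 67.0 and 96.2 against 0, 1.45 and 1.63, a ratio of 72.3 and a counting interval of 24.7 to 350.5 on 3 counts in 2i/LIF. Skil, a SMAD co-repressor, was higher by 1.23.

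**Figure D3:**
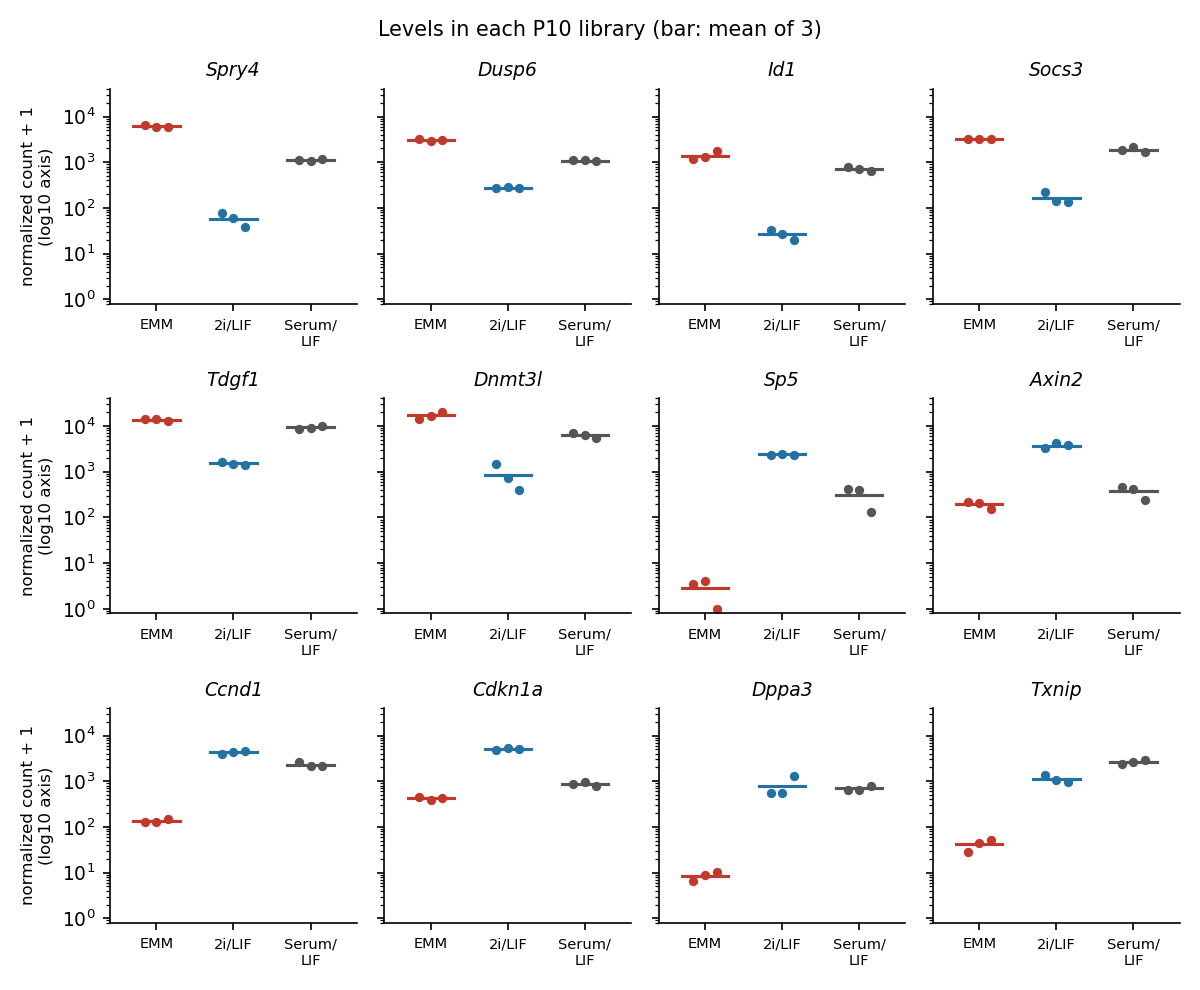
Normalized counts (log10 axis, plus 1) of 12 genes in each P10 library of EMM, 2i/LIF and Serum/LIF, 1 point per library and a bar at the mean of the 3. Spry4, Id1 and Socs3 are highest in EMM, Sp5, Axin2 and Ccnd1 are highest in 2i/LIF, and Txnip is lowest in EMM.

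Among the sugar-related genes listed here, the largest differences were in the targets of MondoA, a transcription factor that senses glucose 6-phosphate and binds with its partner MLX to E-box motifs. Txnip, an arrestin-like protein that limits glucose uptake, had 27.3, 43.6 and 50.4 normalized counts in EMM and 1353, 1076 and 984 in 2i/LIF, a log2 fold change of −4.93 with an SE of 0.21 (adjusted p = 1.29e-12 by edgeR). Serum/LIF stood higher still, at 2646 ± 282 (SD, n = 3). Its relative Arrdc4 had 57.9, 63.9 and 50.4 in EMM and 374, 260.0 and 264 in 2i/LIF (log2 fold change −2.35, SE 0.20, edgeR adjusted p = 1.98e-08), and its Serum/LIF level was 885 ± 18.7 (SD, n = 3). For both genes the EMM libraries lay below every library of the other media. Mlxip, which encodes MondoA, and Mlx did not pass, at 0.20 (SE 0.12) and 0.40 (SE 0.14). Txnip shares exonic sequence with Gm15441 on the opposite strand. The 250 bases before the RefSeq starts of both targets in GRCm38.p6 are shown because MondoA is known to act on these genes. Those of Arrdc4 lie at chr7:68749239-68749488 on the minus strand and hold 1 E-box CACGTG, in capitals, which ends 187 bases before the start, and those of Txnip lie at chr3:96557707-96557956 on the plus strand and do not hold these letters.
Arrdc4: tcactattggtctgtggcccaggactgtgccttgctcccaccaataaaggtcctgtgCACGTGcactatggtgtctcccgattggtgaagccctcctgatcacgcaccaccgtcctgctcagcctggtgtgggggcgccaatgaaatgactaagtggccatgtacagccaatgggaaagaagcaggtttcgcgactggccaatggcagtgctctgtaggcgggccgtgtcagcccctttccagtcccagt
Txnip: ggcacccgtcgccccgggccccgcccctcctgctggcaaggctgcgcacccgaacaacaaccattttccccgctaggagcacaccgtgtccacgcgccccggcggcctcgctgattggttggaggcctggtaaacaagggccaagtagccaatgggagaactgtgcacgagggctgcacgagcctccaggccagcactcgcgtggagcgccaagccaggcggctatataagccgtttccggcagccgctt
CACGTG was present in the window of 1854 of 27025 RefSeq genes (6.86%) and of 2 of the 4 genes of this list, Arrdc4 and Mlx. Its absence says only that these letters do not occur in the window.

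Leloir pathway genes were higher in EMM for the most part. Of 7 genes, 5 were higher and 1 lower by adjusted p. In the order of the pathway, Galm, the mutarotase that presents galactose to the kinase, was higher by 0.87 on the log2 scale. Galk1, which phosphorylates galactose, had 1547, 1676 and 1975 in EMM and 777, 569 and 619.8 in 2i/LIF (log2 fold change 1.40, SE 0.13, edgeR adjusted p = 5.42e-08), and 1838 ± 96.9 (SD, n = 3) in Serum/LIF. Galt, the uridylyltransferase, did not pass (log2 fold change −0.14, SE 0.15, edgeR adjusted p = 0.443). Ugp2, which makes UDP-glucose, was higher by 0.59. The phosphoglucomutases diverged, with 1564, 1395 and 1768 against 596, 502 and 336 for Pgm1 (log2 fold change 1.74, SE 0.25, edgeR adjusted p = 1.04e-05) and 407, 363 and 389 against 761, 909 and 1003 for Pgm2 (log2 fold change −1.20, SE 0.11, edgeR adjusted p = 2.31e-08). Neither gene's libraries overlapped between the media.

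Glycolysis gave 12 higher and 3 lower of 22 genes, with a median log2 fold change of 0.55. The transporters diverged, Slc2a1 (GLUT1) at 1.11 (SE 0.13) and Slc2a3 (GLUT3) at −0.98 (SE 0.08), and so did the hexokinases, Hk2 at 1.04 (SE 0.16) and Hk1 at −1.02 (SE 0.08). The phosphofructokinase Pfkl and the regulator Pfkfb3 were higher by 1.28 and 1.07. Below the fold threshold, Aldoa, Pgk1, Pkm and Ldha were higher by 0.61, 0.86, 0.79 and 0.80. The lactate exporter Slc16a3 (MCT4) had 2587, 2289.6 and 2178 in EMM and 775, 517 and 404 in 2i/LIF (log2 fold change 2.08, SE 0.28, edgeR adjusted p = 4.93e-06), the largest rise on the list, and in Serum/LIF it was 2736 ± 196 (SD, n = 3). For several of these genes, among them Pfkl, Pgk1, Ldha and Slc16a3, 2i/LIF replicate 1 was the highest of its group.

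**Figure D4:**
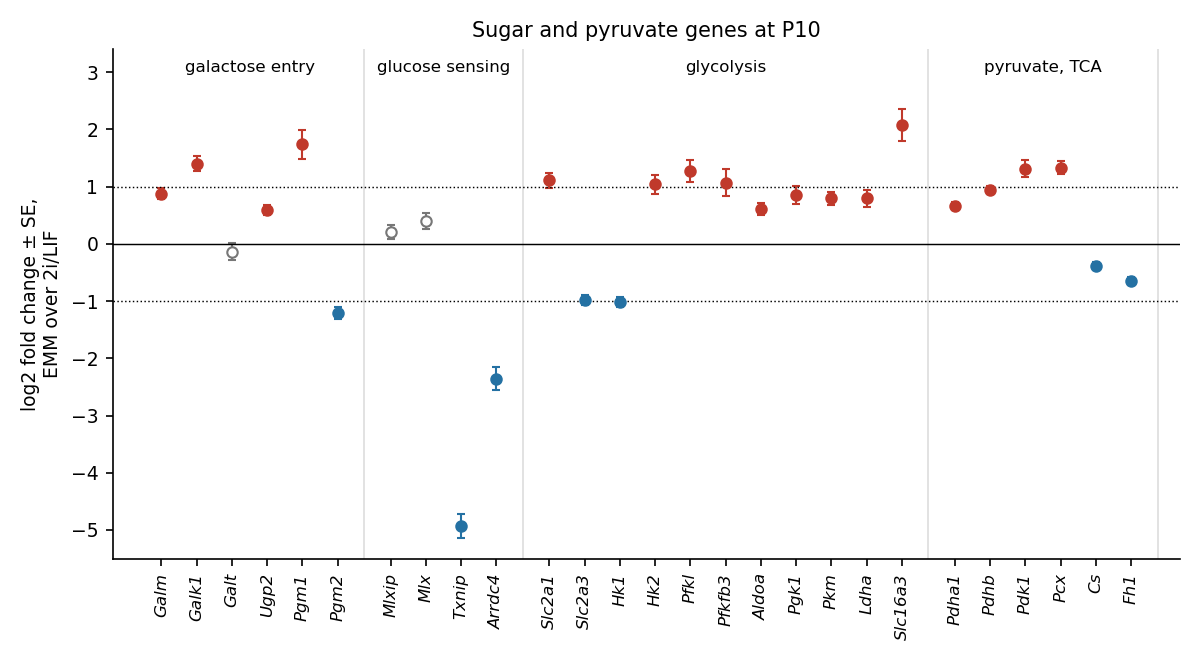
Log2 fold change between EMM and 2i/LIF at P10 with its SE for genes of galactose entry, glucose sensing, glycolysis and pyruvate use, in pathway order, from 18 libraries in 1 fit and 3 libraries per medium. Filled points passed an adjusted p under 0.01, and dotted lines mark 1 and −1. Txnip and Arrdc4 lie far below 0, and Slc16a3 and Pgm1 are the highest points.

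Genes of pyruvate use and the tricarboxylic acid cycle moved in both directions, 8 higher and 3 lower of 29. Their median log2 fold change was −0.01. Pyruvate carboxylase, Pcx, which refills the cycle, had 1444, 1362 and 1608 in EMM and 639, 607 and 512 in 2i/LIF (log2 fold change 1.33, SE 0.11, edgeR adjusted p = 1.06e-08), and Pdk1, the kinase that shuts pyruvate dehydrogenase, was higher by 1.31. Pdha1 and Pdhb, subunits of that dehydrogenase, were higher by 0.66 and 0.94, while citrate synthase (Cs) and fumarase (Fh1) were lower by 0.38 and 0.65. Of 79 nuclear genes of oxidative phosphorylation, 19 were higher and 6 lower, with a median of 0.22, and 2 in each direction passed the fold threshold. Ndufb3, a complex I subunit, was higher by 1.03, and Ndufb4 was lower by 1.26 and Cox7a1 by 1.53. The other higher gene, Ndufa4l2 (1.93), lost its call without 2i/LIF replicate 3, at 1.48. Mitochondrially encoded genes gave 0 higher and 5 lower of 13, with a median of −1.03. mt-Nd4l, which shares sequence with mt-Nd4, had 414, 156 and 426 in EMM and 348, 1669 and 1552 in 2i/LIF (log2 fold change −1.85, SE 0.50, edgeR adjusted p = 0.00407), a call that was lost without EMM replicate 2 or 2i/LIF replicate 2 or 3, at −1.51 to −1.60. mt-Cytb had 21750.5, 13711 and 8613 in EMM replicates 1 to 3 and 20371, 52701 and 56585 in 2i/LIF replicates 1 to 3. 2i/LIF replicate 1 thus fell inside the EMM range, and the libraries of the media overlapped. The call of mt-Cytb (log2 fold change −1.55, SE 0.40, edgeR adjusted p = 0.00271) was lost without EMM replicate 2 or 3 or 2i/LIF replicate 2 or 3, and its value was −1.28 without EMM replicate 3.

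Hypoxia-inducible factors and genes that respond to them were mostly higher in EMM than in 2i/LIF, 10 of 13 tested and none lower, with a median of 1.19. Against Serum/LIF at P10 the median of the list was 0.34. Epas1, which encodes HIF-2α, had 2344, 2291 and 2039 in EMM, 413, 457 and 364 in 2i/LIF and 225, 221 and 283 in Serum/LIF (log2 fold change 2.44, SE 0.11, edgeR adjusted p = 2.62e-12). The EMM libraries of Epas1 lay above those of both other media. Egln3, a prolyl hydroxylase that HIF induces, had 477, 382 and 341 against 53.4, 72.6 and 56.2 (log2 fold change 2.75, SE 0.26, edgeR adjusted p = 6.50e-08). Ndrg1, Adm and the mitophagy receptor Bnip3 had log2 fold changes of 2.39, 2.41 and 2.07. Vegfa was higher by 0.66.

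Lipid synthesis went the other way. Of 12 genes of fatty acid synthesis, 9 were lower in EMM and none higher, with a median log2 fold change of −0.93. The desaturase Scd1, which makes oleate, had 1126, 1015 and 827 in EMM and 4814, 5026 and 5364 in 2i/LIF (log2 fold change −2.35, SE 0.11, edgeR adjusted p = 4.64e-12), near the 1395 ± 57.3 (SD, n = 3) of Serum/LIF. Fads1, Fads2 and Scd2, also desaturases, had log2 fold changes of −1.71, −1.72 and −1.24. Fatty acid synthase, Fasn, did not pass (log2 fold change 0.09, SE 0.08, edgeR adjusted p = 0.37). Srebf1, the factor that drives these genes, was lower by 0.98. Of 25 cholesterol genes, 11 were lower and 1 higher, with a median of −0.33. Dhcr7, the last enzyme of the pathway, had 347, 373 and 282 against 1394, 1216 and 1190.0 (log2 fold change −1.91, SE 0.10, edgeR adjusted p = 3.81e-11). Insig1, the sterol-sensing retention protein, had a log2 fold change of −1.54. Fatty acid oxidation gave 8 higher and 3 lower of 18. Ppara, a nuclear receptor that drives this pathway, was near the floor, with 14.5, 12.5 and 13.7 against 3.14, 5.81 and 2.44 (log2 fold change 1.88, SE 0.55, edgeR adjusted p = 0.0075). DESeq2 did not call it, and neither did edgeR when any 1 library other than 2i/LIF replicate 2 was left out, at 1.57 to 1.94. Acaa2, the mitochondrial thiolase, was higher by 1.36, and the carnitine palmitoyltransferases Cpt1a and Cpt1c were lower by 0.98 and 1.08.

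Chaperones of the endoplasmic reticulum were higher in EMM, 8 of 14 and none lower. Hspa5 (BiP) had 11282, 11966 and 13238 in EMM and 5616, 4408 and 4574 in 2i/LIF (log2 fold change 1.32, SE 0.09, edgeR adjusted p = 8.68e-10), and Creld2 was higher by 1.25. Of 20 genes of the integrated stress response and serine synthesis, 9 were higher and 5 lower. The amino acid transporter Slc7a3 was higher by 1.27 and the stress factor Atf3 lower by 2.34. Threonine and glycine catabolism, on which mESCs depend, gave 1 higher gene, Gldc (1.12), and 3 lower of 5. The NRF2 targets gave 5 higher and 3 lower of 13, with a median of 0.05, and Osgin1 was the one called fall, at −3.56. Lysosomal genes gave 5 higher and 12 lower of 22. Lamp2, a membrane protein of lysosomes, had 704, 708 and 541 in EMM and 3452, 4258 and 4633 in 2i/LIF (log2 fold change −2.65, SE 0.11, edgeR adjusted p = 1.42e-12), with 615 ± 54.3 (SD, n = 3) for Serum/LIF, whereas Tfeb, a factor that drives lysosomal genes, was higher by 1.74. Of 7 sirtuins, 2 were higher and 1 lower. Sirt1, a nuclear deacetylase, had 5724, 6102 and 5548 in EMM and 1833, 1634 and 1696 in 2i/LIF (log2 fold change 1.75, SE 0.07, edgeR adjusted p = 1.09e-12). The mitochondrial members diverged, Sirt4 at −1.87 and Sirt5 at 0.93, the latter not passing the adjusted p threshold without 2i/LIF replicate 3 (0.79).

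Several inhibitors of the cell cycle were lower in EMM. Of 16 cell cycle genes, 3 were higher and 6 lower by adjusted p. Cdkn1a (p21), an inhibitor of cyclin-dependent kinases, had 456, 380.3 and 435 in EMM and 4829.7, 5403 and 4988 in 2i/LIF, a log2 fold change of −3.58 with an SE of 0.09 (adjusted p = 2.29e-15 by edgeR). Cdkn2a and Cdkn2b, of the INK4 locus, had log2 fold changes of −3.34 (SE 0.29) and −2.09 (SE 0.26). Ccne1, cyclin E1, had 3465, 3418 and 3773 against 1237, 1098 and 1019 (log2 fold change 1.67, SE 0.09, edgeR adjusted p = 3.65e-11), and Ccnd3 was higher by 1.01. The Myc relatives Mycl and Mycn were lower by 1.90 and 0.93, in contrast to Myc itself. Of 25 apoptosis genes, 7 were higher and 11 lower. The higher members included the BH3-only genes Pmaip1 (NOXA), with 596, 662 and 609 against 86.3, 68.3 and 55.4 (log2 fold change 3.19, SE 0.17, edgeR adjusted p = 2.22e-11), Bik (2.98) and Hrk (2.64, or 3.56 without 2i/LIF replicate 2 and 2.04 without replicate 3), but also Bcl2l1 and Mcl1, which protect cells (1.26 and 0.70). The lower members included the TNF receptor Tnfrsf1a (−2.27), Casp8 (−1.79) and Apaf1 (−1.23), which start the caspase cascade.

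Of 20 genes that respond to serum, most of them cytoskeletal or matrix-associated, 15 were higher in EMM and none lower, with a median of 0.94, or 1.13 without the 3 members that were at or under the floor in both media. Myl9, a myosin light chain, had 28.1, 34.3 and 50.4 against 1.57, 0 and 0, a ratio of 71.9 with a counting interval of 12.9 to 2839. S100a6, a calcium-binding protein, was higher by 4.29. Some members that rose stayed far under Serum/LIF. Tagln, a smooth muscle actin-binding protein, had 52.2, 43.6 and 103 in EMM and 3.14, 8.71 and 3.26 in 2i/LIF, against 2369.8 ± 146 (SD, n = 3) in Serum/LIF. Thbs1, thrombospondin 1, had 80.4, 67.0 and 71.0 and 6.28, 11.6 and 5.70, against 1659 ± 183. Nearer to Serum/LIF, the calponin gene Cnn2 (log2 fold change 3.39, SE 0.12, edgeR adjusted p = 9.41e-14) and the tropomyosin gene Tpm2 (log2 fold change 3.36, SE 0.21, edgeR adjusted p = 2.20e-10) stood at 1273 ± 30.6 and 481 ± 83.3 in EMM against 2395 ± 61.5 and 836 ± 61.1 in Serum/LIF (SD, n = 3 each). Of 11 genes of adhesion, 5 were higher and 2 lower. Zeb2, a repressor of E-cadherin, had 5.63, 9.35 and 2.29 against 0, 1.45 and 1.63, on 3 counts in 2i/LIF, and its call was lost by DESeq2 and when any 1 library other than EMM replicate 3 was left out, at an edgeR adjusted p of up to 0.0515. Cdh1 (E-cadherin), the main adhesion molecule of naive colonies, had 2525, 2576 and 2566 in EMM and 12340.4, 12193 and 12483 in 2i/LIF, a log2 fold change of −2.27 with an SE of 0.07 (adjusted p = 2.33e-14 by edgeR). Its Serum/LIF level was 8859 ± 571 (SD, n = 3), so EMM was the lowest of the media. Of 12 genes of antigen presentation, 4 were higher and 1 lower, with B2m, the light chain of MHC class I, at 1.58 and H2-D1 at 1.55.

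Markers of other lineages moved singly, in either direction. Of 17 primitive endoderm genes, 6 were higher and 4 lower. Col4a1, a type IV collagen of basement membranes, had 3169, 3049 and 3434 in EMM and 48.7, 40.7 and 39.1 in 2i/LIF (log2 fold change 6.25, SE 0.22, edgeR adjusted p = 1.31e-13). Col4a2, which lies next to it on the opposite strand and shares exonic sequence with it, was higher by 5.52, and the endocytic receptor Lrp2 by 2.75. Sox7, an endoderm factor, had 37.0, 40.5 and 18.3 against 0, 0 and 0.815, a ratio of 118 with an interval of 21.1 to 4646. In the other direction, Hnf4a, a visceral endoderm factor, had 9.64, 9.35 and 22.9 in EMM and 270.0, 274 and 156 in 2i/LIF (log2 fold change −4.20, SE 0.35, edgeR adjusted p = 1.04e-08), whereas Gata4 did not pass (log2 fold change 0.97, SE 0.37, edgeR adjusted p = 0.0323). Of 11 trophectoderm genes, 3 were higher, Hand1 and the keratins Krt18 (1.43) and Krt19 (1.73), and 2 lower. Krt18 reached 127 ± 42.7 in EMM against 3091 ± 266 in Serum/LIF (SD, n = 3 each). The neural list gave 2 higher, Sox1 (2.59) and Tubb3 (1.87), and 1 lower of 5, the intermediate filament gene Nes (−1.02). Mesoderm gave 2 higher of 3, of which Kdr (FLK1), the VEGF receptor, had 93.2, 103 and 82.5 against 6.28, 7.26 and 4.89 (log2 fold change 3.94, SE 0.44, edgeR adjusted p = 4.91e-07). The fibroblast list gave 1 higher and 1 lower of 6. Thy1, a surface glycoprotein of fibroblasts and neurons, had 357, 304 and 259 against 9.42, 17.4 and 6.52 (log2 fold change 4.88, SE 0.31, edgeR adjusted p = 2.62e-10). The fibroblast collagen Col1a2 had 2.41, 4.68 and 6.87 against 39.2, 17.4 and 46.4 (log2 fold change −3.15, SE 0.67, edgeR adjusted p = 6.11e-04), a call that was lost without EMM replicate 1 (−2.65), while Col1a1 stood at 4.82, 9.35 and 18.3 and 6.28, 8.71 and 4.07 and did not pass, against 1895 ± 289 (SD, n = 3) in Serum/LIF.

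At P20 the same pair of media was compared in 6 other libraries, and 4068 genes (25.3%) were called, 2561 higher and 1507 lower in EMM. Of the genes higher in EMM at P10, 1178 were also higher at P20, which is 66.5% of the P10 list and 46% of the P20 list. For lower genes 798 were shared, 45% and 53% of the lists. Opposite calls were made for 113 genes. Of the 3544 genes called at P10, 2978 had the same sign at P20, and the correlation of the log2 fold changes across all 16054 genes was 0.604, a description across genes that are not independent. A test of the difference between the media effects, P10 minus P20, called 2654 genes (16.5%), of which 1166 were also called at P10. The P10 and P20 libraries come from separate collections of cells, so passage cannot be told apart from other differences between the collections. At P20 the median log2 fold change was −0.34 for the 746 tested genes of chromosome 6 and −0.29 for the 833 of chromosome 8, against −0.12 and 0.06 at P10. At P10 itself chromosome X had a median of −0.168, with 58 genes called higher and 115 lower of 590. Chromosome 15 had one of 0.189, with 103 higher and 60 lower of 623. Median differences, P10 minus P20, were 0.282, −0.248 and −0.243 for chromosomes 8, 12 and X. Whether such shifts have a part in the differences between media or passages was not tested.

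Several differences were called at both passages. Dusp6 and Spry4 stayed high in EMM, with log2 fold changes of 3.77 and 4.88 at P20, and Axin2, Cdkn1a and Txnip stayed low, at −2.89, −2.62 and −6.44. The effects on Rpl10l and Lin28a differed by 0.05 and 0.08 between the passages, which did not pass the test of the difference. Other genes were called in opposite directions. Egr1, lower in EMM by 1.76 at P10, had a log2 fold change of 6.17 at P20. Its P20 levels were 669, 696 and 638 in EMM and 2.35, 8.87 and 12.5 in 2i/LIF, so that the 2i/LIF level at P20 was far below that at P10. Fos had 129 ± 21.0 in EMM and 21.6 ± 6.93 in 2i/LIF at P20 (SD, n = 3 each), below its P10 levels in both media. Lef1 (−2.14 and 3.46), Zic2 (−3.10 and 1.15) and Lefty1 (−1.40 and 2.50) were likewise lower in EMM at P10 and higher at P20. Fgf5 was at 102, 113 and 149 in EMM and 0, 0 and 0 in 2i/LIF at P20, so that its EMM level at P20 was far above its P10 level. Socs3 did not pass at P20 (0.05), where its levels were 1334, 1487 and 1152 and 1424, 1254 and 1188.

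**Figure D5:**
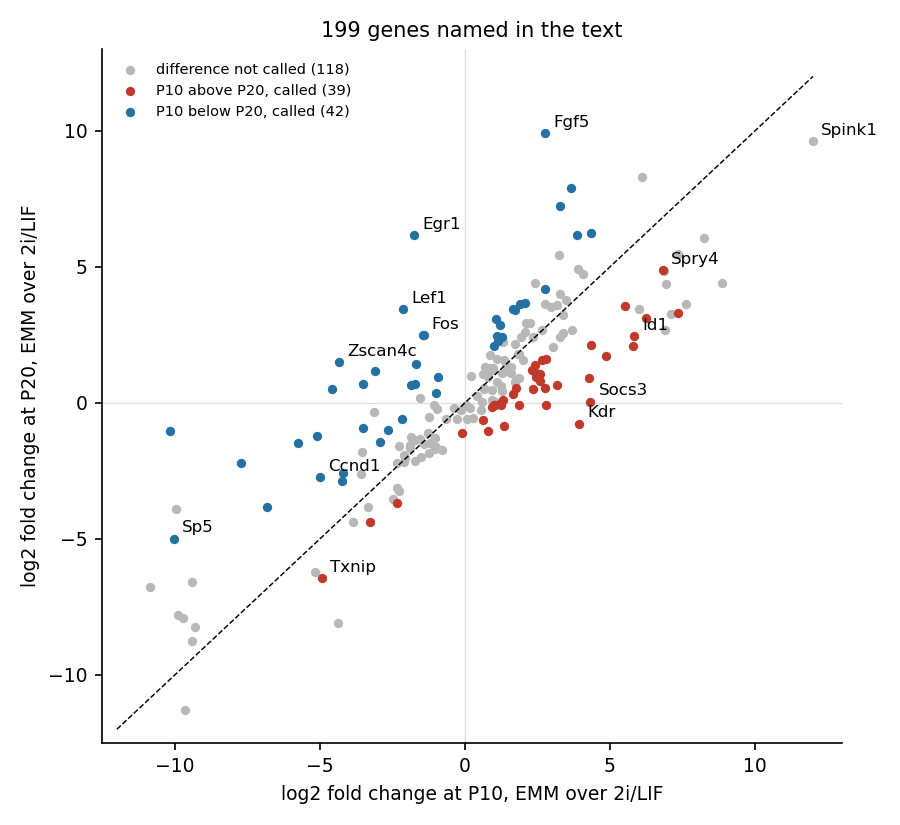
Log2 fold change between EMM and 2i/LIF at P20 against that at P10 for the genes named in the text, 1 point per gene. Coloured points passed the test of the difference between the passages (log2 difference above 1 in size and adjusted p under 0.01), and the diagonal marks equal effects. Egr1, Lef1 and Fgf5 lie far from it, and values of genes with no count in a group are fitted.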

How the data were processed

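RNA-seq libraries were made with a directional kit from total RNA of E14tg2a cells. The authors deposited estimated counts per gene for 18 passage libraries, of which 9.98% of the values were not whole, and these were rounded. The submitters' processing notes name STAR, Salmon, DESeq2 and mm10, and the methods name STAR and HTSeq without separating experiments. Versions and the strand setting are not given in the sources used here. Symbols and GRCm38 positions were added for 55487 gene IDs.

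Genes were filtered with filterByExpr, scaled by TMM and fitted in 1 edgeR (4.0.16, R 4.3.3) quasi-likelihood model of 6 groups, so that all 18 libraries share the estimate of spread. P-values were adjusted by the Benjamini-Hochberg method, the SE is the log2 fold change over the root of F, and the fit was tested on simulated data. A normalized count is a count over the effective library size times the mean of that size. Sequences came from RefSeq.

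Groups came from the labels for medium and passage. The gene lists, 38 in all, and the members named were chosen with earlier results of these data known. Named genes were the 10 largest called changes each way by fitted log2 fold change with the same direction in all 9 library pairs and a mean of at least 50 normalized counts in a group, and members of the lists, the called members with the largest changes first. Alternatives were other scalings, filters, DESeq2 (1.42.0), the compared libraries alone, a replicate block, other thresholds and single libraries left out. The other experiment of the series was not used here.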

Additional observations from a re-analysis of the deposited data

Results flagged for a closer look

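For 81 of the 199 genes named above, the effect of the medium differed between P10 and P20 by the test of the difference itself (log2 difference above 1 in size and edgeR adjusted p under 0.01, a rule that 16.5% of all tested genes met). The named genes were chosen in part by the size of their P10 effect, which enters this difference. Their share is therefore not to be set against that of all genes. A call is given below as lost where the adjusted p reached 0.01. Each value below is the log2 fold change of EMM over 2i/LIF at P10 minus that at P20, from 3 libraries per group. It was below 0 for 42 genes and above 0 for 39. Akap6 and Fgf5 had no count in 1 of the 4 groups and Sp5, Inhbb and C1qtnf9 very few, so their values depend on the fit.

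Among ERK outputs and AP-1 genes the difference was −7.93 for Egr1, −3.93 for Fos, −2.26 for Ccnd1 and −1.88 for Dusp4, against 1.94 for Spry4, 2.19 for Junb and 2.89 for Etv4. The named Wnt genes that passed had negative values, with −5.60 for Lef1, −5.51 for T, −5.04 for Sp5, −4.28 for Cdx2, −3.87 for Rnf43, −2.58 for Tnfrsf19, −1.57 for Tcf7 and −1.35 for Axin2. Cdx1 (0.52) and Nkd2 (−0.08) did not pass. Ascl2 had −1.75, and its call was lost without P10 2i/LIF replicate 3 (−1.40).

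Of pluripotency genes, Tdgf1 had 2.50, Utf1 1.18, L1td1 1.23, Zfp42 1.23, Tbx3 1.82 and Nr0b1 −1.13. Of formative genes, Fgf5 had −7.18, Zic2 −4.25, Zic5 −3.13 and Sall2 −2.41, whereas Etv1 had 1.04 and Foxd3 1.83. Pou3f1 (−2.30) lost its call without P10 2i/LIF replicate 3 (−2.15). Among genes of DNA methylation Dnmt3a had −1.81, Dnmt3b −1.11, Uhrf1 1.00, Tet2 1.07 and Dnmt3l 2.20, the last being 2.81 without P10 2i/LIF replicate 1. Of imprinted genes, Plagl1 had 1.12 and Usp29 −4.20, the latter being −3.56 without P10 2i/LIF replicate 3.

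Among LIF, BMP and Nodal genes the difference was 4.27 for Socs3, 1.52 for Cish, 1.10 for Pim3, 3.38 for Id1, −1.51 for Bmp7, −3.90 for Lefty1, −1.63 for Skil and 3.69 for Inhbb. Bmp4 (1.07) lost its call under 9 of the 12 single libraries left out, at 0.79 to 1.09. It kept the call without P10 2i/LIF replicate 2, P10 EMM replicate 3 or P20 2i/LIF replicate 1.

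Among metabolic genes the difference was −2.02 for Pfkfb3, −1.69 for Pgm1, −1.33 for Slc2a3, −1.14 for Pfkl, −1.32 for Gldc, 1.51 for Txnip, 1.33 for Arrdc4, 2.19 for Acaa2 and 1.12 for Ndufb3. Lamp2 had −1.66, Hspa5 1.21 and Creld2 1.25. Of hypoxia genes, Bnip3 had −1.60 and Epas1 1.48. Egln3 (−1.43) lost its call without P10 2i/LIF replicate 2 (−1.30). Ndrg1 (1.23) lost it without P10 2i/LIF replicate 2 or 3, P10 EMM replicate 3, P20 2i/LIF replicate 2 or P20 EMM replicate 2 or 3, at 0.96 to 1.23.

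Of cell cycle and survival genes, Mycn had −1.88, Ccnd3 1.07, Ccne1 1.34 and Bcl2l1 1.32. Of lineage markers, Kdr had 4.70, Thy1 3.16, Tubb3 1.96, Sox1 1.77 and Col4a1 3.13. Col4a2 (1.97) lost its call without P10 2i/LIF replicate 3 (1.74) or P20 2i/LIF replicate 2 (1.72). S100a6 had 3.39. Hnf4a (−1.62) lost its call under 8 of the 12 libraries left out, at −1.35 to −1.60, and kept it without replicate 3 of any of the 4 groups. Thbs1 had −3.95, which became −4.88 without P20 2i/LIF replicate 1 and −3.26 without replicate 2. Tagln (−4.25) was −5.77 without P20 2i/LIF replicate 1 and lost its call without P10 2i/LIF replicate 2 or 3 or P20 2i/LIF replicate 2 or 3, at −3.62 to −4.60.

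Values of 2-cell genes, Dppa3, mt-Nd4l and C1qtnf9 also moved when single libraries were left out. Zscan4c (−5.84) fell short without P20 EMM replicate 2 (−3.94). It was −8.41, −5.12 and −5.19 without P20 2i/LIF replicate 3, P20 2i/LIF replicate 2 and P10 2i/LIF replicate 3. Zscan4d (−5.09) was −6.62 without P10 EMM replicate 1 and −5.78 without P20 2i/LIF replicate 3. Dppa3 (−3.01) lost its call under 9 of the 12 libraries left out, at −2.47 to −3.12, and was −3.76 without P20 2i/LIF replicate 3. mt-Nd4l (−2.51) lost its call without P10 2i/LIF replicate 2 or 3, P10 EMM replicate 2, P20 2i/LIF replicate 1 or P20 EMM replicate 1 or 3, at −2.18 to −2.47. Akap6 had −9.12. C1qtnf9 (4.04) lost its call under 7 of the 12 libraries left out, at 3.20 to 4.04, and was 6.06 without P10 2i/LIF replicate 3 and 4.64 without P20 2i/LIF replicate 2.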

How the results depend on the processing

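The count of 3544 genes called at P10 ran from 3085 to 3706 when each of the 6 libraries was left out in turn. It was 3545 with DESeq2 size factors or library totals, 3551 with DESeq2, 3868 with no filter, 2854 with the compared libraries alone and 4062 at an adjusted p under 0.05. It was 7237 with no fold threshold, and 1911 with at least 10 counts required in every compared library, where 11646 genes were tested. The 2654 passage differences ran from 2293 to 3027 under single libraries left out and were 5190 with no fold threshold. With library totals the median log2 fold change of all genes at P10 was −0.04 in place of 0.01, and higher calls made up 31.9% of the passage differences in place of 38.1%. The 199 named genes were judged here by adjusted p under 0.01 alone, whatever the fold. Gdf3 also failed with library totals, no filter or the compared libraries alone. Zeb2 and Ppara failed with no filter or DESeq2, and Sirt5 and mt-Nd4l with the compared libraries alone. Dnmt1 passed with DESeq2, and Mlx (0.40) passed with no filter, or without EMM replicate 3, at 0.53. Passage differences were also lost by Bmp4 with library totals, and by Bmp4, Dppa3, Pfkl, Ndrg1 and Hnf4a with the compared libraries alone. Of the medians of the 38 gene lists, 23 shifted by at least 1 SD of the EMM libraries under some alternative, 11 of them with at least 10 counts in every compared library, 9 with the compared libraries alone and 5 with library totals. The median of the pyruvate and tricarboxylic acid list, −0.013, ran from −0.0293 without 2i/LIF replicate 1 to 0.0461 without EMM replicate 3, and that of the mesoderm list fell from 3.51 to 2.70 without 2i/LIF replicate 3. The cause of these shifts was not tested.

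Libraries of EMM and 2i/LIF with the same replicate number did not deviate together, the correlations of their deviations from the group means at P10 being −0.165, −0.01 and −0.07 for numbers 1 to 3, and no EMM library correlated best with its own number. With the replicate number as a block, 3466 genes were called at P10 and 2601 passage differences. By adjusted p alone, the P10 call of Ppara and the passage difference of Hnf4a were lost, and no other named gene changed.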
